A study of Saccharomyces cerevisiae with 15 samples.

Results

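The comparison described here set Saccharomyces cerevisiae cultures fed phenylalanine as their only nitrogen source against cultures fed asparagine, 3 arrays each, 6 of the 15 arrays of the series. The arrays were chosen by the nitrogen source named in their titles, with no use of measured values, and all probe sets other than the control probe sets were followed. Phenylalanine arrays came from chemostats with 5.0 g/l L-phenylalanine, and asparagine arrays from chemostats with 5.0 g/l asparagine. Equal weights of these amino acids do not hold equal nitrogen. The amount of nitrogen therefore cannot be told apart from the kind of source. Both groups were the prototrophic CEN.PK113-7D, a haploid laboratory strain of mating type a, grown with air at 30 °C and pH 5.0 in a medium with 7.5 g/l glucose and 6.6 g/l potassium sulfate. Glucose limited growth in both groups, the dilution rate was 0.10 per hour, and sampling followed 10 to 14 changes of the culture volume, with dissolved oxygen above 50% of air saturation. The remaining 9 arrays, 3 each with proline (8.8 g/l), leucine (10.0 g/l) and methionine (11.3 g/l), served to estimate the spread between arrays and to ask whether a level on phenylalanine differed from that on every other source. The series asks how yeast responds to preferred and non-preferred nitrogen sources, and asparagine is treated here as the preferred one.

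Yeast takes nitrogen from phenylalanine by the Ehrlich pathway, in which an aminotransferase moves the amino group to 2-oxoglutarate, a decarboxylase turns the phenylpyruvate left behind into phenylacetaldehyde, and dehydrogenases reduce this to phenylethanol or oxidise it to phenylacetate. Asparagine is instead split to aspartate and ammonium. On good nitrogen sources, nitrogen catabolite repression keeps genes for the uptake and breakdown of poor sources low through GATA-type transcription factors, while amino acids outside the cell act on a separate group of permease genes through the SPS sensor of the plasma membrane.

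Each value is the signal of 1 probe set, in array units made by the MAS5 software, and differences are given as log2 of the signal on phenylalanine minus that on asparagine. Means are given ± SD over the 3 arrays of a source. The trimmed means of the 15 arrays were equal by scaling (150.09 to 150.15), while the median signals were 44.5, 47.7 and 38.4 on the phenylalanine arrays and 51.3, 54.7 and 55.3 on the asparagine arrays. The median within-group SD of log2 signal was 0.304 for phenylalanine, the highest of the 5 sources, and 0.199 for asparagine. Standard errors and p-values below rest on a spread pooled over all 5 sources. They may thus be too small for comparisons with phenylalanine. Signals of pairs of phenylalanine arrays correlated across probe sets at 0.951 to 0.966, and phenylalanine with asparagine arrays at 0.918 to 0.946. The ratio of 3′ to 5′ actin signal, a measure of RNA integrity, was 2.02, 3.35 and 3.06 on phenylalanine and 3.64, 2.07 and 2.61 on asparagine. Added hybridisation controls gave geometric mean signals of 344, 198 and 808 on phenylalanine and 409.6, 293 and 349 on asparagine, so their range was wider on phenylalanine. The scanner record of phenylalanine array 1, the only such record used here, says that the array was a repeat made after the scanner was serviced. Genes that mark mating type a were present in both groups, with summed signals of 4251 to 7711 on phenylalanine and 2871 to 4731 on asparagine. Sums for alpha-specific genes were 196 to 228 on phenylalanine and 176 to 219 on asparagine, and those for sporulation genes 207 to 255 on phenylalanine and 254 to 323 on asparagine. The a sums held 9 probe sets and were mostly MFA1 and MFA2, while the alpha sums held 4. The alpha gene SAG1 gave 98.2 to 135 on phenylalanine and 119 to 151 on asparagine. This was near the a gene STE2, at 106 to 161 on phenylalanine and 88.4 to 109 on asparagine. In RNA from a whole culture, fewer cells with a transcript and less of it per cell cannot be told apart.

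Of 7445 probe sets tested, 1912 (25.7%) differed between phenylalanine and asparagine at an adjusted p under 0.05 in limma's moderated test. Among these, 563 were higher on phenylalanine (7.56%) and 1349 lower (18.1%). A change of at least 2-fold besides the adjusted p was met by 587 probe sets (7.88%), 130 higher (1.75%) and 457 lower (6.14%). Counted as genes, 1538 of 5384 were called (28.6%), 494 higher (9.18%) and 1044 lower (19.4%), and for 1427 of the 1538 the signals of the 3 arrays of each group did not overlap. Over all tested genes, 2029 did not overlap between the groups (37.7%). Lack of overlap given for any gene below can be read against this share. The genes named for the largest changes were chosen among those without overlap, so for them the lack of overlap is no separate support. The surplus of lower calls depended on the scaling of the arrays. The difference of the median probe set was -0.16 as deposited, 0.01 after quantile normalization and 0.08 after centring each array on its median. With those settings the genes called were 728 higher and 623 lower (quantile) and 944 higher and 442 lower (centring). Differences below are given as deposited and can be read against the median of -0.16. Counts in gene lists can be read against the 9.18% higher and 19.4% lower over all genes. Single arrays also moved the totals, as lower probe sets numbered 872 without phenylalanine array 3 and 780 without asparagine array 3, and all calls 1175 without asparagine array 3.

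**Figure D1:**
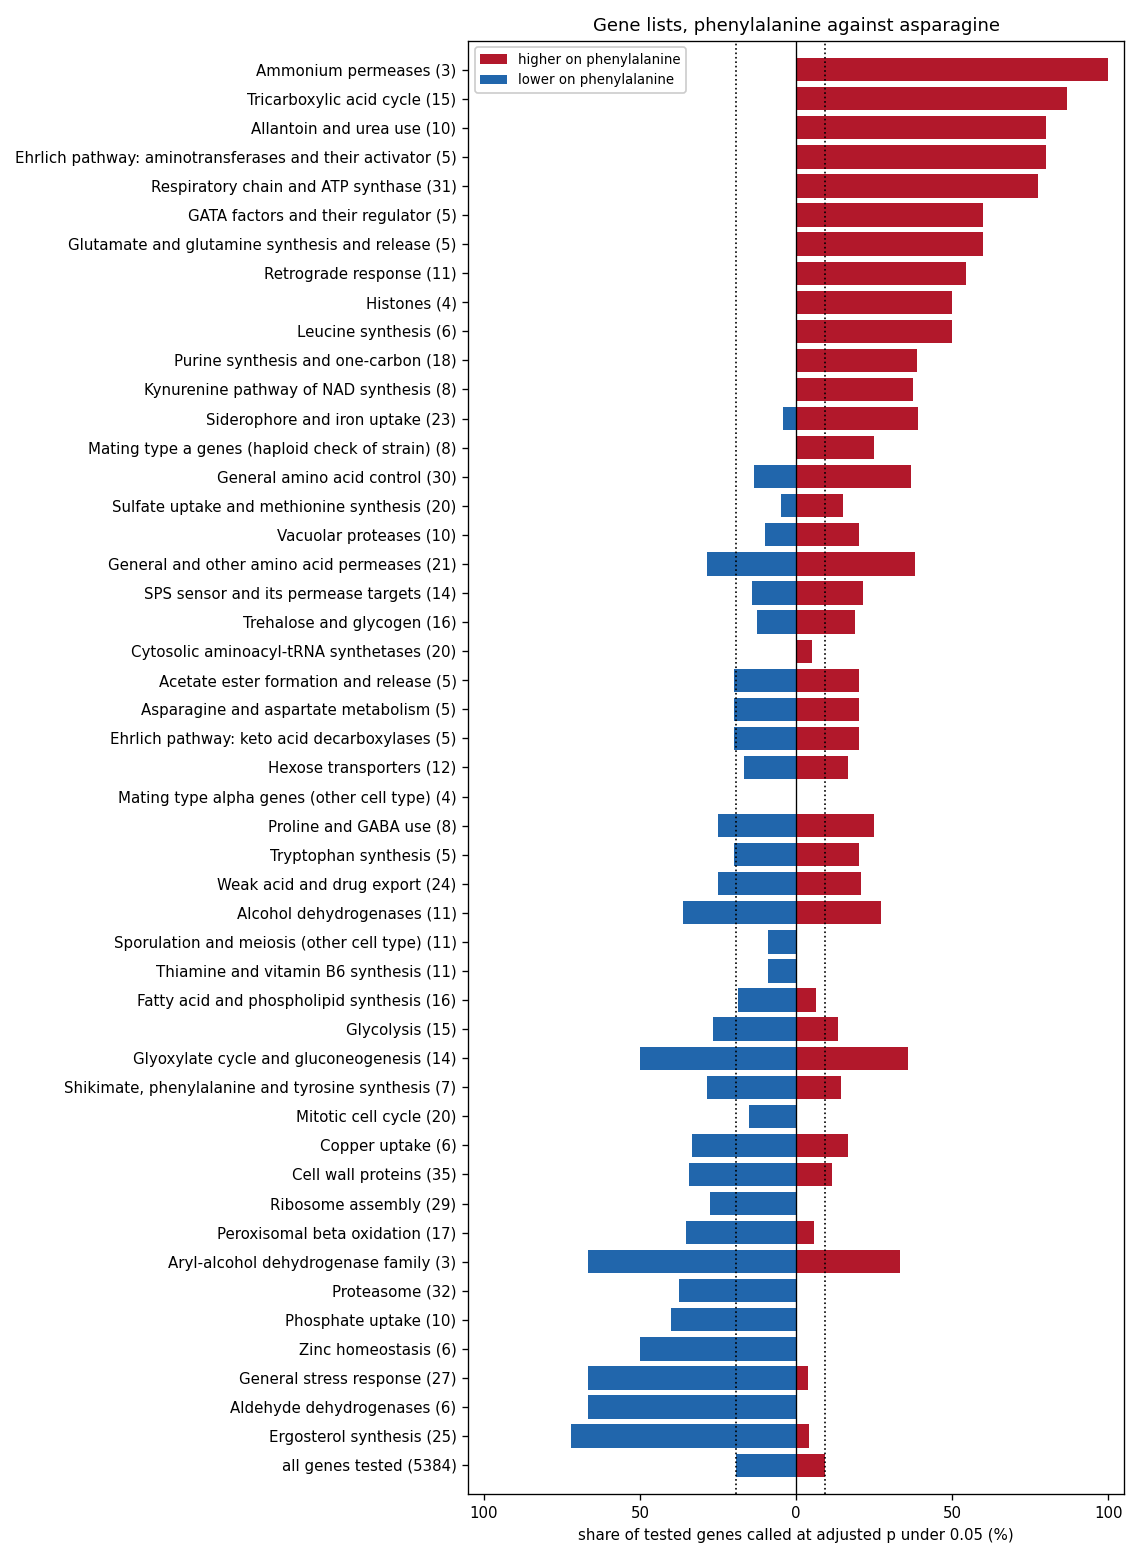
Share of the tested genes of each of the 48 gene lists that were called higher (red, to the right) or lower (blue, to the left) on phenylalanine than on asparagine, in percent, with the number of genes tested in brackets and the shares over all 5384 genes as dotted lines. The ammonium permease and citrate cycle lists reach furthest to the right, and the ergosterol synthesis list furthest to the left.

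The 3 genes of the Ehrlich pathway most closely tied to aromatic amino acids rose on phenylalanine. Of the 4 aminotransferase genes and their activator ARO80 4 of 5 rose and none fell, with a median of 1.44. ARO9, the aromatic aminotransferase that aromatic amino acids induce, gave signals of 1840.1, 1643 and 2027 on phenylalanine, against 304, 298 and 345 on asparagine. ARO10, the decarboxylase of phenylpyruvate and related keto acids, gave 1778, 2035 and 2176 on phenylalanine, against 52.3, 57.7 and 72.7 on asparagine. ARO80, the zinc cluster activator that binds the promoters of both, gave 34.3, 41.8 and 49.2 on phenylalanine, against 16.1, 14.0 and 15.7 on asparagine. In all 3 genes every phenylalanine array lay above every asparagine array. The differences were 2.54 ± 0.12 (SE, adjusted p = 6.54e-10) for ARO9, 5.04 ± 0.17 (SE, adjusted p = 9.22e-12) for ARO10 and 1.44 ± 0.22 (SE, adjusted p = 0.000258) for ARO80. That is 5.81-fold for ARO9, 33.0-fold for ARO10 and 2.71-fold for ARO80.

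The levels of these 3 genes on phenylalanine also exceeded those on each of the other 3 sources. ARO10 averaged 1996 ± 202 on phenylalanine (SD, n = 3), against 1046 ± 168 on leucine, 896 ± 71.2 on methionine and 37.2 ± 6.85 on proline. Phenylalanine minus leucine, the nearest source, was 0.94 ± 0.17 (SE, adjusted p = 0.00157) for ARO10 and 0.69 ± 0.12 (SE, adjusted p = 0.00124) for ARO9. For ARO80 the other 4 sources lay close together, at 11.2 to 17.2 in the mean, and phenylalanine minus leucine was 1.27 ± 0.22 (SE, adjusted p = 0.00132). ARO9 and ARO10 thus had intermediate levels on leucine and methionine, while the level of their activator on those sources was near that on asparagine. These ARO80 signals lay close to 10, the 25th percentile of all signals, so differences among those sources could be missed.

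The other aminotransferases differed less or followed another order. BAT2, the cytosolic branched-chain aminotransferase, gave 1065, 1019.8 and 1174 on phenylalanine, against 194, 262 and 278 on asparagine, a difference of 2.16 ± 0.14 (SE, adjusted p = 4.51e-08), and its mean on methionine was higher still at 1516 ± 42.5. ARO8, the aromatic aminotransferase that also serves synthesis, gave 685, 849 and 694 on phenylalanine, against 532, 651 and 487 on asparagine. Its difference was 0.42 ± 0.12 (SE, adjusted p = 0.0181), and it did not pass without phenylalanine array 2 (adjusted p = 0.0531), asparagine array 1 (0.0541) or asparagine array 3 (0.0923). ARO8 was lower on phenylalanine than on leucine, where it averaged 1626 ± 76.4, with a difference of -1.14 ± 0.12 (SE, adjusted p = 1.57e-05). BAT1, the mitochondrial branched-chain aminotransferase, did not pass (0.33, adjusted p = 0.0601). Of the decarboxylases besides ARO10, the pyruvate decarboxylase genes PDC1 and PDC5 and the related THI3 did not pass, with -0.45 (adjusted p = 0.101), 0.38 (adjusted p = 0.182) and 0.11 (adjusted p = 0.773). PDC6, a minor pyruvate decarboxylase, averaged 24.7 ± 4.96 on phenylalanine and 45.7 ± 8.15 on asparagine (-0.89 ± 0.24 SE, adjusted p = 0.0139), and this call was lost without phenylalanine array 3 (adjusted p = 0.0611), without asparagine array 2 (0.0599) and after quantile normalization (0.102).

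**Figure D2:**
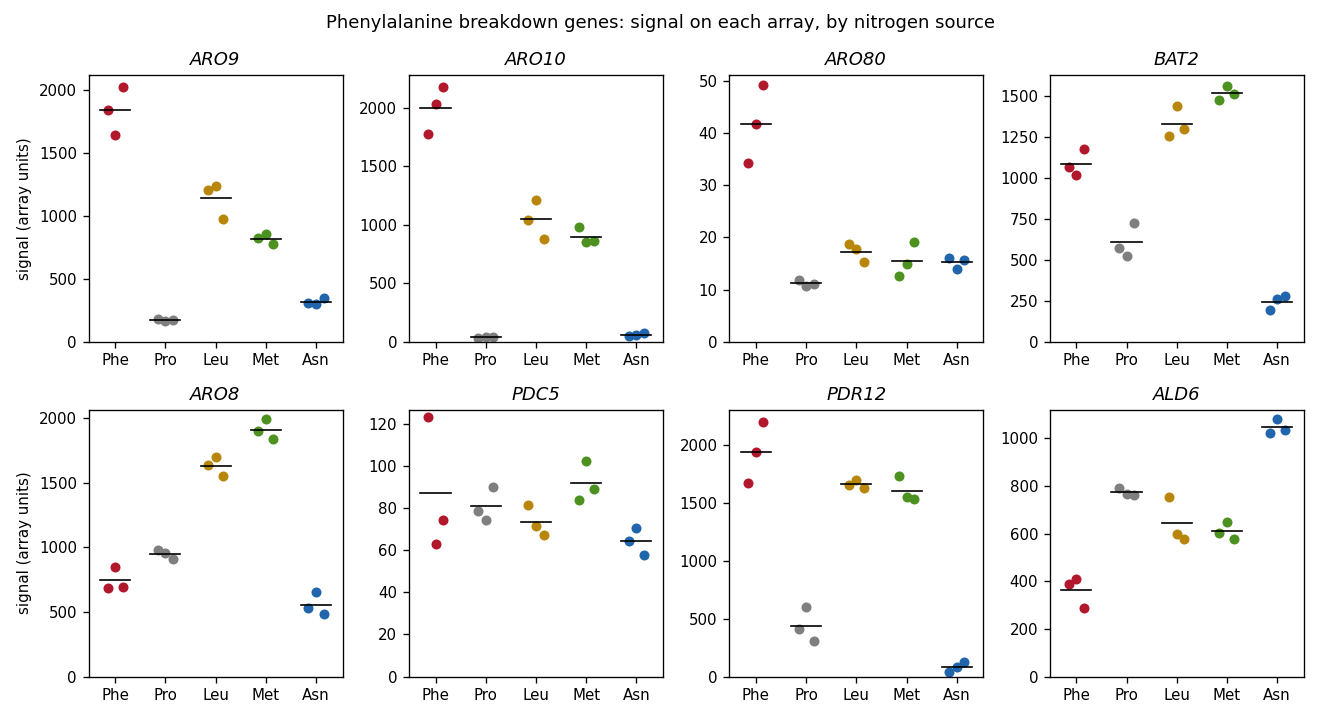
Signal of 8 genes of phenylalanine breakdown and export on every array (points), with the mean of the 3 arrays (line), for phenylalanine, proline, leucine, methionine and asparagine from left to right; vertical axes start at 0 and differ between genes. ARO9, ARO10 and ARO80 are highest on phenylalanine, ARO8 is highest on methionine and leucine, and ALD6 is lowest on phenylalanine.

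The alcohol dehydrogenases, some of which can reduce phenylacetaldehyde, were called in both directions. Among 11 tested alcohol dehydrogenase genes 3 were higher (1 without asparagine array 1) and 4 lower, and the median difference was -0.16 as deposited and -0.29 after quantile normalization but 0.08 after centring. ADH5, an alcohol dehydrogenase isozyme, gave 230.1, 311 and 388 on phenylalanine, against 152, 160.4 and 152 on asparagine, without overlap (0.97 ± 0.15 SE, adjusted p = 0.00026). SFA1, which acts on long-chain alcohols and on the glutathione adduct of formaldehyde, gave 108, 104 and 67.5 on phenylalanine, against 213, 255 and 244 on asparagine. GRE2, a reductase of methylglyoxal and other aldehydes, gave 32.8, 32.9 and 42.0 on phenylalanine, against 193, 213 and 231 on asparagine. Both fell well outside the spread of the arrays, with differences of -1.37 ± 0.20 for SFA1 and -2.57 ± 0.19 for GRE2 (SE, adjusted p = 0.000138 and 1.31e-07). The abundant fermentation and respiration enzymes ADH1, ADH2 and ADH3 did not pass, with differences of -0.16, -0.16 and 0.36.

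All 4 aldehyde dehydrogenase calls were lower, of 6 genes tested, with a list median of -0.99, against -0.14 over all genes. ALD6, the cytosolic enzyme that makes acetate from acetaldehyde, gave 387, 409 and 289 on phenylalanine, against 1022, 1081 and 1035 on asparagine, a difference of -1.55 ± 0.13 (SE, adjusted p = 8.66e-07). It was also lower on phenylalanine than on methionine, the nearest other source, with a difference of -0.77 ± 0.13 (SE, adjusted p = 0.00106). ALD2 and ALD3, cytosolic enzymes that respond to stress, averaged 22.7 ± 0.862 on phenylalanine and 55.5 ± 9.11 on asparagine for ALD2, and 31.3 ± 14.4 on phenylalanine and 86.5 ± 20.8 on asparagine for ALD3 (SD, n = 3 each). HFD1, a fatty aldehyde dehydrogenase, averaged 892 ± 191 on phenylalanine and 1441 ± 103 on asparagine. The mitochondrial ALD4 and ALD5 did not pass, with 0.22 (adjusted p = 0.255) and -0.46 (adjusted p = 0.111). Of the genes for esters of alcohols such as phenylethanol, ATF2, an alcohol acetyltransferase, averaged 40.9 ± 3.7 on phenylalanine and 83.6 ± 18.4 on asparagine (-1.01 ± 0.18 SE, adjusted p = 0.00107), while ATF1 did not pass (0.19, adjusted p = 0.403). EHT1, which makes ethyl esters of medium-chain fatty acids, was higher at 457 ± 79.2 on phenylalanine and 222 ± 35.8 on asparagine (1.04 ± 0.16 SE, adjusted p = 0.00025). Of the 3 aryl-alcohol dehydrogenase family genes tested 2 were lower and 1 higher, the rise (AAD14) being lost without phenylalanine array 2 or any 1 of the asparagine arrays. AAD10, one of those lower, averaged 97.3 ± 21.8 on phenylalanine and 214 ± 11.2 on asparagine (-1.16 ± 0.18 SE, adjusted p = 0.000268).

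Export of organic acids was marked by PDR12, the plasma membrane transporter that expels weak acids. Its signals were 1666, 1939 and 2195 on phenylalanine, against 34.9, 80.6 and 123 on asparagine, a 27.3-fold difference with no overlap (4.77 ± 0.33 SE, adjusted p = 6.18e-08). Leucine and methionine arrays gave like levels, and phenylalanine minus leucine was 0.21 ± 0.33 (SE, adjusted p = 0.716). WAR1, the activator of PDR12, did not pass, with 67.6, 63.1 and 59.5 on phenylalanine and 75.8, 70.5 and 68.2 on asparagine. ESBP6, of the monocarboxylate permease family, averaged 797 ± 143 on phenylalanine and 305 ± 33.5 on asparagine (1.38 ± 0.13 SE, adjusted p = 2.22e-06). TPO1, a polyamine exporter, averaged 438 ± 166 on phenylalanine and 196 ± 0.808 on asparagine (1.10 ± 0.19 SE, adjusted p = 0.000871), with phenylalanine array 2 at 625 above the other two.

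Other exporters were called in both directions. Of 24 tested genes for acid and drug export 5 were higher and 6 lower, and their median of -0.25 became 0.03 after quantile normalization. The shares over all genes were 9.18% higher and 19.4% lower. PDR5, the main pump of the pleiotropic drug resistance network, averaged 92.5 ± 23.9 on phenylalanine and 304 ± 11.3 on asparagine, and PDR10, its close relative, averaged 70.6 ± 16.9 on phenylalanine and 265 ± 42.4 on asparagine. Both fell, with differences of -1.75 ± 0.20 for PDR5 and -1.92 ± 0.19 for PDR10 (SE, adjusted p = 2.04e-05 and 3.16e-06), although 2 of the 3 dimmer PDR5 probe sets did not pass. SNQ2, a further efflux pump, gave 132, 146 and 93.3 on phenylalanine, against 276, 331 and 304 on asparagine (-1.32 ± 0.15 SE, adjusted p = 1.70e-05). SNQ2 was lower on phenylalanine than on every other source, with a difference of -0.84 ± 0.15 (SE, adjusted p = 0.00174) from leucine, the nearest. FLR1, a drug transporter of another family, averaged 56.5 ± 17.0 on phenylalanine and 112 ± 12.0 on asparagine (-1.03 ± 0.18 SE, adjusted p = 0.00096). PDR1 and PDR3, the transcription factors of the network, did not pass, with -0.19 (adjusted p = 0.382) and -0.27 (adjusted p = 0.302).

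Amino acid uptake changed permease by permease. GAP1, the general amino acid permease of cells on poor nitrogen sources, gave 2520.0, 2491 and 2640.0 on phenylalanine, against 183, 156 and 224 on asparagine, which is 13.8-fold (3.78 ± 0.12 SE, adjusted p = 6.11e-12). AGP1, a broad permease under the SPS sensor that carries phenylalanine, gave 993, 1279.9 and 1471 on phenylalanine, against 278, 373 and 356 on asparagine (1.89 ± 0.15 SE, adjusted p = 2.52e-07). DIP5, the permease of dicarboxylic amino acids, gave 2316, 2419.7 and 2752 on phenylalanine, against 678, 870.2 and 962 on asparagine (1.59 ± 0.14 SE, adjusted p = 1.54e-06). All arrays of these 3 permeases were separate between the groups.

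Peptide transport genes were among the largest rises. PTR2, the carrier of di- and tripeptides, gave 1097, 385 and 648 on phenylalanine, against 32.1, 28.5 and 35.7 on asparagine (4.34 ± 0.27 SE, adjusted p = 1.98e-08). The phenylalanine arrays differed widely among themselves, yet the lowest lay far above all asparagine arrays. OPT2, an oligopeptide transporter, gave 134, 200.1 and 199.8 on phenylalanine, against 1.2, 0.5 and 2.9 on asparagine. Because asparagine signals lay below 10, the 25th percentile of all signals, its rise is given as at least 17.5-fold (adjusted p = 1.31e-11). OPT1, the glutathione and oligopeptide carrier, went the other way, averaging 21.8 ± 6.45 on phenylalanine and 64.6 ± 16.8 on asparagine (-1.59 ± 0.39 SE, adjusted p = 0.00888).

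Of the 14 tested genes of the SPS sensor and its targets 3 were higher (PTR2, AGP1 and DIP5) and 2 lower. The branched-chain permeases BAP2 and BAP3, the glutamine permease GNP1 and the methionine permease MUP1 did not pass, with differences of 0.24, -0.05, -0.36 and -0.40. TAT2, the high-affinity tryptophan and tyrosine permease, had 84.9, 75.6 and 70.5 on phenylalanine, against 94.0, 106 and 109 on asparagine and did not pass (-0.42, adjusted p = 0.0566). TAT1, its lower-affinity counterpart, averaged 194 ± 31.2 on phenylalanine and 289 ± 54.0 on asparagine (-0.57 ± 0.16 SE, adjusted p = 0.0174), and neither it nor SSY5, the sensor's protease, passed without phenylalanine array 3, asparagine array 2 or asparagine array 3, when the list held 0 lower calls (4 without phenylalanine array 2). Among the 21 other permeases 8 were higher and 6 lower. CAN1, the arginine permease, averaged 226 ± 9.27 on phenylalanine and 104 ± 45.1 on asparagine (1.20 ± 0.23 SE, adjusted p = 0.00136), and PUT4, the proline permease, 1898 ± 319 on phenylalanine and 1001 ± 113 on asparagine (0.92 ± 0.14 SE, adjusted p = 0.000195). ALP1, which resembles CAN1 and carries basic amino acids, gave 76.0, 75.7 and 36.1 on phenylalanine, against 285, 246 and 289 on asparagine (-2.20 ± 0.29 SE, adjusted p = 7.83e-05). The vacuolar carriers VBA1, AVT4 and AVT6 rose by 1.17 ± 0.14, 0.90 ± 0.12 and 0.82 ± 0.19 (SE, adjusted p = 3.04e-05, 9.51e-05 and 0.0057).

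All 3 ammonium permease genes rose. MEP2, the high-affinity permease that also signals filamentous growth, gave 759, 814 and 897 on phenylalanine, against 27.9, 43.0 and 39.0 on asparagine, which is 22.8-fold (4.51 ± 0.14 SE, adjusted p = 5.24e-12). MEP3, the low-affinity permease, gave 246, 236 and 222 on phenylalanine, against 26.7, 27.2 and 31.1 on asparagine (3.05 ± 0.12 SE, adjusted p = 8.11e-11). MEP1 gave 308, 291 and 316 on phenylalanine, against 91.5, 77.2 and 92.5 on asparagine (1.81 ± 0.13 SE, adjusted p = 9.26e-08). None of these signals overlapped between the groups, which held for 37.7% of all tested genes in either direction.

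Among the 5 GATA factor genes and their regulator, 3 rose. GAT1, an activator, gave 514, 706 and 656 on phenylalanine, against 120.5, 149.6 and 197 on asparagine (2.02 ± 0.19 SE, adjusted p = 1.84e-06). DAL80, a repressor whose own gene is under repression, gave 41.5, 44.7 and 74.2 on phenylalanine, against 1.0, 3.5 and 12.8 on asparagine. Its mean on asparagine lay below 10, so the rise is at least 5.16-fold (adjusted p = 3.85e-05). GZF3, the second repressor, averaged 83.4 ± 6.51 on phenylalanine and 54.5 ± 4.2 on asparagine (0.61 ± 0.13 SE, adjusted p = 0.00339). This GZF3 call was lost when only the 6 arrays were fitted, which left 2 higher calls in the list. The activator GLN3 and its inhibitor URE2 did not pass, with -0.45 (adjusted p = 0.161) and -0.26 (adjusted p = 0.207). DAL80 remained lower on phenylalanine than on methionine, with a difference of -1.76 ± 0.44 (SE, adjusted p = 0.0108), and than on proline, with -1.64 ± 0.44 (SE, adjusted p = 0.015).

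Allantoin and urea genes rose in 8 of 10 cases, with none lower and a median of 0.90. DAL2, allantoicase, gave 101, 128 and 174 on phenylalanine, against 22.0, 19.5 and 14.1 on asparagine (2.85 ± 0.23 SE, adjusted p = 4.08e-07). DAL3, ureidoglycolate lyase, gave 525, 667 and 595 on phenylalanine, against 110.5, 126 and 111 on asparagine (2.36 ± 0.11 SE, adjusted p = 7.51e-10). DUR3, the urea transporter, gave 139.9, 313 and 206 on phenylalanine, against 67.9, 69.6 and 61.0 on asparagine (1.66 ± 0.21 SE, adjusted p = 4.12e-05). The groups did not overlap for any of these. DAL5, the allantoate permease, averaged 188 ± 66.8 on phenylalanine and 74.0 ± 7.5 on asparagine (1.29 ± 0.18 SE, adjusted p = 0.000128), while 2 dimmer probe sets of the same gene did not pass (-0.26 and 0.44). On methionine, DAL3 and DAL5 averaged 1071 ± 52.5 and 1164 ± 55.9, and phenylalanine minus methionine was -0.85 ± 0.11 (SE, adjusted p = 0.000102) for DAL3 and -2.69 ± 0.18 (SE, adjusted p = 8.10e-08) for DAL5. PUT1, proline oxidase, averaged 219 ± 39.0 on phenylalanine and 73.9 ± 16.6 on asparagine (1.58 ± 0.17 SE, adjusted p = 8.39e-06), and PUT2, the next enzyme, did not pass (0.28, adjusted p = 0.0885).

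Of 8 genes for the use of proline and gamma-aminobutyrate 2 were higher (PUT1 and PUT4) and 2 lower (UGA4 and PUT3), with a median of -0.02. PUT3, the activator of proline use, had -0.45 (adjusted p = 0.0452), a call lost under 11 of 19 alternatives, among them quantile normalization, centring, and leaving out phenylalanine array 1, phenylalanine array 3, asparagine array 1 or asparagine array 3. The lower calls of the list numbered 0 after quantile normalization and 1 in each of these other cases. UGA4, the permease of gamma-aminobutyrate, was dim and lower, at 12.2, 17.1 and 11.2 on phenylalanine, against 27.4, 23.9 and 23.2 on asparagine (-0.90 ± 0.22 SE, adjusted p = 0.00837). After quantile normalization its call was lost (adjusted p = 0.0636), and the other 2 UGA4 probe sets, both dimmer, had differences of the opposite sign (0.11 and 0.56) that did not pass.

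**Figure D3:**
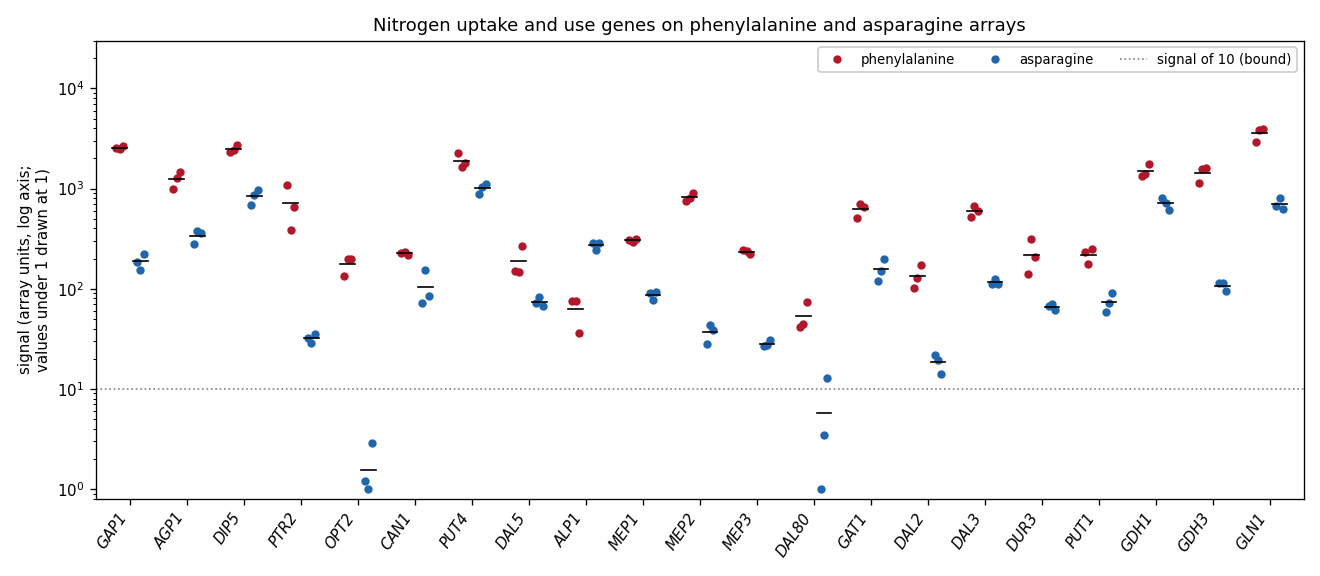
Signal of 21 genes of nitrogen uptake and use on every array (points, log axis) with the mean of 3 arrays (line), phenylalanine (red) left of asparagine (blue) for each gene. The dotted line marks a signal of 10, below which folds are given as bounds, and ALP1 alone among these genes is lower on phenylalanine.

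Of 5 genes for the synthesis and release of glutamate and glutamine 3 rose and none fell. GLN1, glutamine synthetase, gave 2893, 3873 and 3968 on phenylalanine, against 668, 807 and 620.4 on asparagine (2.35 ± 0.14 SE, adjusted p = 1.98e-08). GDH3, an NADP-dependent glutamate dehydrogenase, gave 1127, 1561 and 1598 on phenylalanine, against 113, 115 and 94.8 on asparagine, which is 13.2-fold (3.72 ± 0.15 SE, adjusted p = 6.31e-11). GDH1, the main enzyme of the same reaction, gave 1347, 1405 and 1754 on phenylalanine, against 799, 719.6 and 612 on asparagine (1.08 ± 0.13 SE, adjusted p = 2.68e-05). No array of one group reached the range of the other. GDH2, which releases ammonium from glutamate, and GLT1, glutamate synthase, did not pass, with 0.34 (adjusted p = 0.0976) and 0.37 (adjusted p = 0.0612). Of 5 genes of asparagine and aspartate metabolism 1 was higher (2 without phenylalanine array 2 or asparagine array 2) and 1 lower. ASN1, an asparagine synthetase, averaged 786 ± 117 on phenylalanine and 413 ± 116 on asparagine (0.96 ± 0.18 SE, adjusted p = 0.00164), and AAT1, the mitochondrial aspartate aminotransferase, 168 ± 8.27 on phenylalanine and 284 ± 25.9 on asparagine (-0.75 ± 0.12 SE, adjusted p = 0.000454). ASN2, the other synthetase, the cytosolic asparaginase ASP1 and the cytosolic aspartate aminotransferase AAT2 did not pass, with 0.09, 0.31 and 0.20. The ASP3 genes, for the secreted asparaginase, had no probe set of their own and get no value.

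Genes for synthesis of the aromatic amino acids were called in both directions. The counts were small, and over all genes 9.18% were higher and 19.4% lower. Of 7 genes of the shikimate, phenylalanine and tyrosine branch 1 was higher and 2 lower. TYR1, prephenate dehydrogenase of the tyrosine branch, gave 50.8, 60.0 and 47.4 on phenylalanine, against 85.5, 87.8 and 94.3 on asparagine, without overlap (-0.76 ± 0.19 SE, adjusted p = 0.00837). PHA2, prephenate dehydratase of the phenylalanine branch, gave 46.4, 43.6 and 46.6 on phenylalanine, against 37.3, 40.7 and 43.2 on asparagine and did not pass (0.17, adjusted p = 0.383). ARO4 and ARO3, the 2 isozymes at the entry of the pathway, had differences of 0.17 (adjusted p = 0.447) and -0.40 (adjusted p = 0.0419). The ARO3 call and the rise of ARO2, chorismate synthase (0.50, adjusted p = 0.0249), were lost without phenylalanine array 1, phenylalanine array 3, asparagine array 1 or asparagine array 3, and after quantile normalization. Of 5 genes of tryptophan synthesis 1 was higher and 1 lower. TRP1, a phosphoribosylanthranilate isomerase, had 0.48 (adjusted p = 0.017), and this call was lost without phenylalanine array 1 or asparagine array 1. TRP2, of anthranilate synthase, averaged 209 ± 31.1 on phenylalanine and 301 ± 27.6 on asparagine (-0.53 ± 0.13 SE, adjusted p = 0.00967), a call lost after centring the arrays (adjusted p = 0.118), while TRP3, TRP4 and TRP5 did not pass. Of 8 genes of NAD synthesis from tryptophan and of nicotinate uptake 3 were higher, but 1 without phenylalanine array 3 or asparagine array 3. TNA1, the permease of the NAD precursor nicotinate, gave 1273, 1709 and 1319 on phenylalanine, against 302, 491 and 430.2 on asparagine (1.83 ± 0.17 SE, adjusted p = 1.58e-06).

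Of 30 genes under general amino acid control 11 were higher and 4 lower, with a median of 0.28, but without asparagine array 3 the higher calls numbered 6, and without asparagine array 2 the lower calls numbered 2. The arginine synthesis genes ARG1 and ARG3 gave the largest of these named differences, at 1.55 ± 0.21 (SE, adjusted p = 8.12e-05) and 1.67 ± 0.18 (SE, adjusted p = 1.10e-05). ARG3, ornithine carbamoyltransferase, had 579.9, 574 and 809.9 on phenylalanine, against 194, 220.5 and 194 on asparagine. CPA1, of carbamoyl phosphate synthesis, rose by 1.05 ± 0.14 (SE, adjusted p = 8.98e-05), and ILV6, of branched-chain synthesis, by 1.20 ± 0.16 (SE, adjusted p = 7.13e-05). LYS4, homoaconitase of lysine synthesis, averaged 164 ± 47.4 on phenylalanine and 279.8 ± 25.7 on asparagine (-0.80 ± 0.16 SE, adjusted p = 0.00254) and was lower than on each other source. LEU4, which opens leucine synthesis, averaged 2444 ± 519 on phenylalanine and 1336 ± 206 on asparagine (0.86 ± 0.17 SE, adjusted p = 0.00228). Of 20 genes for cytosolic aminoacyl-tRNA synthetases 1 was higher; without phenylalanine array 2 there were 4, without asparagine array 2 there were 2, and without any other array none. After centring 9 were higher, and their median was 0.17 as deposited and 0.41 after centring.

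Genes of the citrate cycle were higher on phenylalanine. Of 15 tested, 13 rose and none fell, with a median of 0.71, and the rises numbered 12 after quantile normalization and 14 after centring. CIT2, the peroxisomal citrate synthase that marks the retrograde response, a signal from mitochondria to the nucleus, gave 1105, 1528 and 1743 on phenylalanine, against 197, 249 and 264 on asparagine (2.61 ± 0.16 SE, adjusted p = 2.16e-08). CIT3, a mitochondrial citrate and methylcitrate synthase, gave 894, 884 and 1473 on phenylalanine, against 207, 219.8 and 312 on asparagine (2.12 ± 0.21 SE, adjusted p = 3.55e-06). IDH1, a subunit of NAD-dependent isocitrate dehydrogenase, gave 1195, 1040.0 and 1331 on phenylalanine, against 294, 385 and 316 on asparagine (1.84 ± 0.14 SE, adjusted p = 1.33e-07). In each of the 3 the lowest phenylalanine array was above the highest asparagine array. IDH2, the other subunit, rose by 1.60 ± 0.16, FUM1, fumarase, by 1.02 ± 0.12, ACO1, aconitase, by 0.82 ± 0.14, and SDH1, of succinate dehydrogenase, by 0.77 ± 0.10 (SE, adjusted p = 3.18e-06, 1.75e-05, 0.000552 and 6.94e-05).

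Of 11 retrograde response genes 6 rose, and DLD3, a cytosolic D-lactate dehydrogenase of this group, averaged 242 ± 42.0 on phenylalanine and 57.7 ± 11.1 on asparagine (2.08 ± 0.19 SE, adjusted p = 1.21e-06). CIT1, the main mitochondrial citrate synthase, averaged 3057 ± 628 on phenylalanine and 1798 ± 74.1 on asparagine (0.74 ± 0.14 SE, adjusted p = 0.00129). Its level was also above those on the other sources, by 0.42 ± 0.14 (SE, adjusted p = 0.0441) against methionine, the nearest.

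Respiratory chain and ATP synthase genes rose in 24 of 31 cases, none fell, and the median was 0.51. After quantile normalization 17 rose, and 17 to 26 rose when 1 array was left out. The single differences were modest. COX13, a subunit of cytochrome c oxidase, gave 1263, 1127 and 1276 on phenylalanine, against 805, 575 and 743 on asparagine (0.80 ± 0.12 SE, adjusted p = 0.00024), and it was 1 of 4 of these genes above all other sources. CYC1, cytochrome c, gave 1895, 1916 and 2142 on phenylalanine, against 1036, 1054 and 1057 on asparagine (0.92 ± 0.10 SE, adjusted p = 5.70e-06). COX9 and COX4, further oxidase subunits, rose by 0.81 ± 0.11 and 0.73 ± 0.11, and QCR2, of the cytochrome bc1 complex, by 0.74 ± 0.12 (SE, adjusted p = 0.000116, 0.000183 and 0.000495).

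The glyoxylate cycle and gluconeogenesis split, with 5 genes higher and 7 lower of 14. MLS1, the malate synthase of the glyoxylate cycle, gave 1357, 1647 and 1197 on phenylalanine, against 211, 263 and 347 on asparagine (2.37 ± 0.16 SE, adjusted p = 4.99e-08). PCK1, phosphoenolpyruvate carboxykinase, gave 172, 198 and 94.2 on phenylalanine, against 709.8, 671 and 831 on asparagine (-2.31 ± 0.20 SE, adjusted p = 1.05e-06). FBP1, fructose-1,6-bisphosphatase, gave 95.1, 62.4 and 78.7 on phenylalanine, against 325, 327 and 333 on asparagine (-2.08 ± 0.16 SE, adjusted p = 1.48e-07). Both gluconeogenic enzymes thus fell without overlap while malate synthase rose. MDH2, the cytosolic malate dehydrogenase, averaged 468 ± 79.2 on phenylalanine and 1049 ± 40.9 on asparagine (-1.18 ± 0.12 SE, adjusted p = 3.92e-06), and YAT1, a carnitine acetyltransferase, 225 ± 55.1 on phenylalanine and 91.4 ± 16.6 on asparagine (1.29 ± 0.18 SE, adjusted p = 0.00011).

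Of 12 hexose transporter and sensor genes 2 were higher (1 without phenylalanine array 3, asparagine array 1 or asparagine array 3) and 2 lower, with a median of -0.03. HXT5, a transporter of slow-growing cells, gave 83.1, 80.2 and 22.5 on phenylalanine, against 860.5, 1051 and 880.5 on asparagine, 17.4-fold lower (-4.13 ± 0.36 SE, adjusted p = 1.05e-06). HXT2, a high-affinity transporter, gave 639, 718 and 456 on phenylalanine, against 2784, 2336 and 2462 on asparagine (-2.09 ± 0.16 SE, adjusted p = 2.13e-07), and it was lower than on each other source, with a difference of -0.76 ± 0.16 (SE, adjusted p = 0.00425) from methionine, the nearest. RGT2, a glucose sensor, was higher at 64.7 ± 11.7 on phenylalanine and 34.1 ± 4.99 on asparagine (0.92 ± 0.18 SE, adjusted p = 0.00173). Of 17 genes for peroxisomal beta oxidation 6 were lower and 1 higher, but the lower calls numbered 2 without asparagine array 3 and after centring, and the higher 2 without phenylalanine array 3. POT1, the thiolase of this pathway, gave 369.6, 380.0 and 286 on phenylalanine, against 1536, 1325 and 1475 on asparagine (-2.07 ± 0.13 SE, adjusted p = 2.75e-08). TES1, the peroxisomal thioesterase, was the gene that rose, to 1386, 1423 and 2121 on phenylalanine, against 798, 783 and 769.9 on asparagine (1.04 ± 0.16 SE, adjusted p = 0.000208), and it was above all other sources. In glycolysis 2 of 15 genes were higher and 4 lower as deposited, 2 higher and 6 lower after quantile normalization, and 3 higher and 1 lower after centring. GLK1, glucokinase, averaged 1108 ± 191 on phenylalanine and 1681 ± 133 on asparagine (-0.61 ± 0.12 SE, adjusted p = 0.00228).

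Stress genes were lower on phenylalanine than on asparagine. The median signal of their list was 331 on phenylalanine, 688 on asparagine, 752 on proline, 393 on methionine and 126 on leucine. None of them passed as lower than on every other source. Of 27 genes of the general stress response 18 were lower and 1 higher (2 without asparagine array 3), with a median of -0.89, and 14 were lower after centring. GRE1, a hydrophilin of drying and osmotic stress, gave 26.1, 26.5 and 18.9 on phenylalanine, against 2159, 1792 and 1439 on asparagine, 75.2-fold lower and the largest fall of all genes called (-6.23 ± 0.18 SE, adjusted p = 4.21e-12). SSA3, an Hsp70 chaperone gene, gave 54.2, 79.0 and 32.8 on phenylalanine, against 684, 788 and 552 on asparagine (-3.68 ± 0.29 SE, adjusted p = 2.51e-07). SIP18, a hydrophilin, averaged 273 ± 108 on phenylalanine and 835 ± 88.4 on asparagine (-1.70 ± 0.23 SE, adjusted p = 8.43e-05), and TSA2, a stress-induced peroxiredoxin, 44.5 ± 17.1 on phenylalanine and 132 ± 5.88 on asparagine (-1.64 ± 0.20 SE, adjusted p = 3.45e-05). SSA4, another Hsp70 gene, averaged 161 ± 20.1 on phenylalanine and 367 ± 39.4 on asparagine (-1.19 ± 0.15 SE, adjusted p = 5.27e-05). For each of these 5 genes the highest phenylalanine array lay below the lowest asparagine array. Of all genes tested, 37.7% did not overlap in either direction, and the largest falls were chosen among genes without overlap.

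Further large falls were spread over functions. HPF1, a cell wall mannoprotein, gave 50.5, 63.9 and 35.6 on phenylalanine, against 2429.8, 1522 and 1688 on asparagine, 37.9-fold lower (-5.24 ± 0.31 SE, adjusted p = 1.26e-08). SHH3, a relative of a succinate dehydrogenase subunit, gave 27.7, 50.0 and 16.4 on phenylalanine, against 571, 464 and 434 on asparagine (-4.10 ± 0.30 SE, adjusted p = 1.21e-07). FDH1, formate dehydrogenase, gave 112, 56.5 and 22.9 on phenylalanine, against 793, 884 and 984 on asparagine (-4.07 ± 0.38 SE, adjusted p = 1.84e-06). A second, brighter FDH1 probe set, at 1685 ± 157 on asparagine, fell by less (-3.36, adjusted p = 3.65e-07). Both can bind related transcripts. Falls were also found for PMA2, an isoform of the plasma membrane proton pump (-3.63 ± 0.21 SE, adjusted p = 1.00e-08), SPG1, of stationary phase (-3.40 ± 0.25 SE, adjusted p = 1.45e-07), HEF3, an isoform of a translation elongation factor (-3.15 ± 0.22 SE, adjusted p = 9.26e-08), and TKL2, the minor transketolase (-3.22 ± 0.34 SE, adjusted p = 6.23e-06). DAN1, a mannoprotein of anaerobic walls, gave 2.3, 9.9 and 0.4 on phenylalanine, against 51.9, 51.3 and 26.5 on asparagine and was at least 4.13-fold lower (adjusted p = 0.000166). On the other side stood DPI8 (YJL133C-A), a small mitochondrial protein of unknown role, with 3119, 2833 and 4698 on phenylalanine, against 139.5, 141 and 138 on asparagine, 24.8-fold higher (4.63 ± 0.16 SE, adjusted p = 1.13e-11). Its level on leucine was 3147 ± 330.5 and on methionine 3010.4 ± 189, and phenylalanine minus leucine was 0.14 ± 0.16 (SE, adjusted p = 0.59).

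Ergosterol synthesis was lower in 18 of 25 genes and higher in 1 (none without phenylalanine array 1, phenylalanine array 3 or asparagine array 3), with a median of -0.63, and the lower calls numbered 16 after quantile normalization and 10 after centring. ERG1, squalene epoxidase, gave 553, 567 and 560.2 on phenylalanine, against 999.8, 1141 and 1085 on asparagine (-0.94 ± 0.09 SE, adjusted p = 4.32e-06). ERG25, the C-4 methyl sterol oxidase, gave 1322, 1210.1 and 1382 on phenylalanine, against 3070.5, 2645 and 2474 on asparagine (-1.06 ± 0.11 SE, adjusted p = 3.93e-06). The arrays did not overlap for either gene. Falls were also found for ERG5, the C-22 desaturase (-1.02 ± 0.12 SE, adjusted p = 1.90e-05), ERG28, a scaffold of the demethylation enzymes (-0.91 ± 0.12 SE, adjusted p = 7.91e-05), ERG26, of C-4 decarboxylation (-0.85 ± 0.12 SE, adjusted p = 9.13e-05), and IDI1, which isomerises isopentenyl diphosphate (-1.23 ± 0.16 SE, adjusted p = 6.60e-05). Of 35 cell wall genes 12 were lower (7 after centring) and 4 higher, the higher calls numbering 2 without phenylalanine array 1, 1 without asparagine array 1 and 2 without asparagine array 3. TIR3, a wall mannoprotein, averaged 151 ± 58.2 on phenylalanine and 501 ± 71.2 on asparagine (-1.78 ± 0.27 SE, adjusted p = 0.000249), PIR3, a wall protein with internal repeats, 80.8 ± 52.0 on phenylalanine and 281 ± 66.0 on asparagine (-1.96 ± 0.33 SE, adjusted p = 0.000585), and SCW4, a wall glucanase-like protein, 1926 ± 216 on phenylalanine and 1173 ± 75.6 on asparagine (0.71 ± 0.12 SE, adjusted p = 0.000441).

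Metal and phosphate uptake did not move in 1 direction. Of 23 iron uptake genes 9 were higher and 1 lower, and the lower call was lost without phenylalanine array 1, phenylalanine array 3, asparagine array 2 or asparagine array 3 and joined by another without phenylalanine array 2. FIT2 and FIT3, mannoproteins that help hold siderophore iron in the wall, gave the largest rises. FIT2 had 1786, 1884 and 2086 on phenylalanine, against 520.3, 207 and 161 on asparagine (2.89 ± 0.30 SE, adjusted p = 6.60e-06), and FIT3 had 3655, 4538 and 3843 on phenylalanine, against 1076, 569.5 and 485 on asparagine (2.58 ± 0.27 SE, adjusted p = 5.92e-06). On asparagine, array 1 was the highest for both, yet below every phenylalanine array. FET3, the multicopper oxidase of iron uptake, averaged 349.5 ± 84.1 on phenylalanine and 137 ± 75.2 on asparagine (1.48 ± 0.30 SE, adjusted p = 0.00254), and SIT1, a siderophore carrier, 879 ± 51.3 on phenylalanine and 412 ± 152 on asparagine (1.16 ± 0.20 SE, adjusted p = 0.000639). CTR3, a high-affinity copper transporter, gave 132, 104 and 151 on phenylalanine, against 606, 1091 and 987 on asparagine (-2.76 ± 0.19 SE, adjusted p = 4.83e-08). ZRT1, the high-affinity zinc transporter, averaged 91.6 ± 28.0 on phenylalanine and 342 ± 160.1 on asparagine (-1.80 ± 0.30 SE, adjusted p = 0.00057), with asparagine array 1 at 158 below the rest. Of its 3 dimmer probe sets 1 did not pass and had a difference of the opposite sign (0.43). ZPS1, induced by zinc shortage, averaged 119 ± 53.6 on phenylalanine and 393 ± 5.09 on asparagine (-1.83 ± 0.24 SE, adjusted p = 6.07e-05). PHO84 and PHO89, phosphate carriers, fell, with differences of -2.26 ± 0.33 and -1.88 ± 0.30 (SE, adjusted p = 0.000195 and 0.000385), while the lower calls in their list of 10 numbered 4, and 2 without phenylalanine array 3, asparagine array 2 or asparagine array 3.

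**Figure D4:**
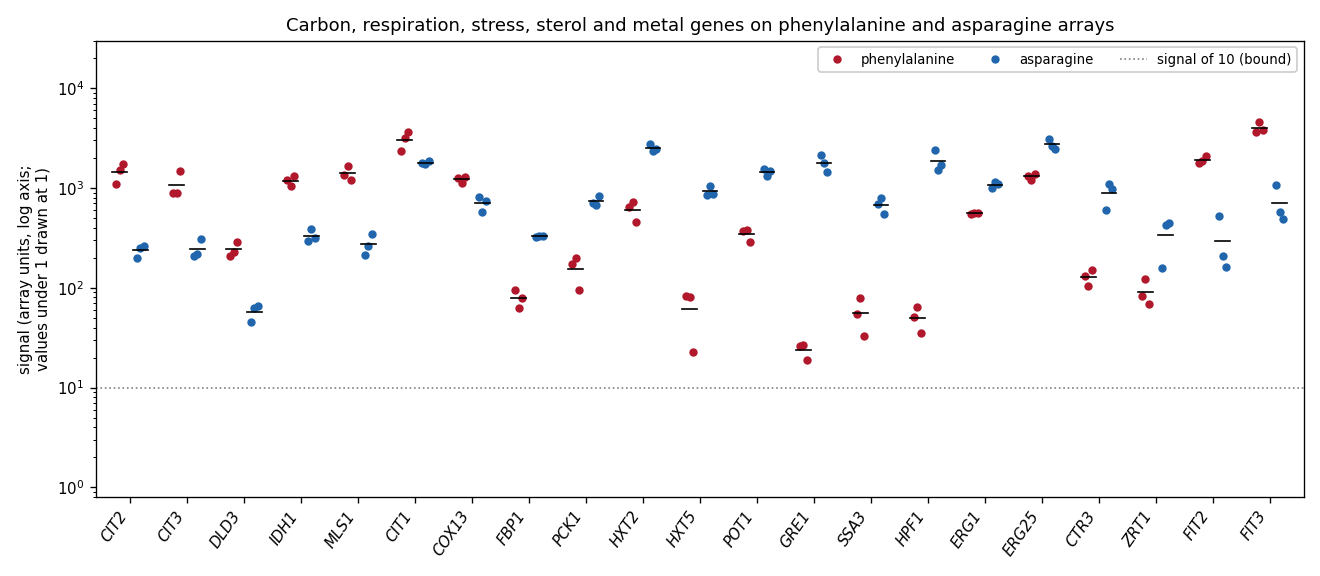
Signal of 21 genes of carbon metabolism, respiration, stress, sterol synthesis and metal uptake on every array (points, log axis) with the mean of 3 arrays (line), phenylalanine (red) left of asparagine (blue) for each gene. The citrate cycle and iron uptake genes are higher and the gluconeogenic, hexose transport, stress and sterol genes lower on phenylalanine.

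Of 18 genes of purine synthesis and one-carbon metabolism 7 were higher and none lower. IMD2, inosine monophosphate dehydrogenase, gave 1455, 2088 and 1881 on phenylalanine, against 238, 279 and 252 on asparagine (2.80 ± 0.14 SE, adjusted p = 1.14e-09), with probe sets that share sequence with related IMD genes. Of 32 proteasome genes 12 were lower as deposited and 3 after centring, none was higher as deposited, and RPN4, the activator of proteasome genes, averaged 276 ± 57.1 on phenylalanine and 615 ± 25.6 on asparagine (-1.17 ± 0.14 SE, adjusted p = 2.33e-05). Ribosome assembly had 8 lower of 29, but 2 after quantile normalization, 1 after centring, 4 without phenylalanine array 2, 3 without asparagine array 2 and 5 without asparagine array 3. HTB2, a histone H2B gene, gave 848, 422 and 825 on phenylalanine, against 287, 329.9 and 283 on asparagine (1.15 ± 0.21 SE, adjusted p = 0.00119). MFA2, the a-factor precursor, gave 1674, 1431 and 3636 on phenylalanine, against 1231, 654 and 558 on asparagine (1.43 ± 0.30 SE, adjusted p = 0.00331), with phenylalanine array 3 far above the rest.

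The counts that follow compare with 9.18% higher and 19.4% lower over all genes. Of 6 genes of leucine synthesis 3 were higher, LEU4 among them. The LEU1 call was lost without phenylalanine array 1, phenylalanine array 3, asparagine array 1 or asparagine array 3. The LEU2 call was lost after quantile normalization, and the other LEU2 probe sets did not pass (-0.41 and 0.46). Of 20 genes of sulfate uptake and methionine synthesis 3 were higher (1 without asparagine array 3) and 1 lower (2 without phenylalanine array 1), MET4, an activator of these genes, averaging 112 ± 11.7 on phenylalanine and 171 ± 16.4 on asparagine (-0.62 ± 0.13 SE, adjusted p = 0.0027). Of 16 genes of trehalose and glycogen 3 were higher and 2 lower, the lower calls numbering 4 without phenylalanine array 2 and 1 without phenylalanine array 3 or asparagine array 1. UGP1, which makes UDP-glucose, averaged 626 ± 114 on phenylalanine and 382 ± 8.6 on asparagine (0.69 ± 0.12 SE, adjusted p = 0.000868). Of 11 genes of thiamine and vitamin B6 1 was lower, or 2 without phenylalanine array 3. This was THI4, of thiazole synthesis, which averaged 45.0 ± 7.67 on phenylalanine and 102 ± 18.2 on asparagine (-1.17 ± 0.22 SE, adjusted p = 0.00128).

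To ask what set phenylalanine apart, a probe set had to pass in the same direction against each of the 4 other sources. This held for 131 of the 7445 probe sets (1.76%), 44 higher (0.591%) and 87 lower (1.17%) on phenylalanine, and for 113 of 5384 genes (2.1%), 40 higher (0.743%) and 73 lower (1.36%). The count rested on single arrays, being 292 without phenylalanine array 2, 73 without phenylalanine array 3 and 80 without asparagine array 2. It was 44 with the hybridisation control signal as a covariate. Which single genes stayed in the set under such alternatives was not followed. Besides the ARO genes the largest rises were ATR2, PHD1 and SSP1. ATR2 (YMR279C), a transporter related to the aminotriazole and boron exporter ATR1, gave 88.0, 45.7 and 67.1 on phenylalanine, against 9.2, 5.2 and 11.4 on asparagine. Because its asparagine mean lay below 10 the rise is at least 6.46-fold (adjusted p = 5.55e-06), and phenylalanine minus leucine, the nearest source, was 1.22 ± 0.31 (SE, adjusted p = 0.0175). PHD1, a transcription factor of filamentous growth, gave 620.5, 418 and 442 on phenylalanine, against 86.6, 99.7 and 109 on asparagine (2.31 ± 0.15 SE, adjusted p = 4.51e-08). It averaged 313 ± 26.9 on leucine, and phenylalanine minus leucine was 0.64 ± 0.15 (SE, adjusted p = 0.0132). SSP1, known from spore formation, averaged 127 ± 9.17 on phenylalanine and 51.3 ± 4.92 on asparagine (1.31 ± 0.16 SE, adjusted p = 3.16e-05).

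Other genes above all sources had smaller differences from asparagine. MIP6, an RNA-binding protein, rose by 1.11 ± 0.15, SRL1, a wall mannoprotein, by 0.99 ± 0.17, CPR8, a secretory cyclophilin, by 0.93 ± 0.17, and ALG7, which starts N-linked glycan assembly, by 0.66 ± 0.15 (SE, adjusted p = 9.34e-05, 0.000586, 0.000871 and 0.00488). YIR016W, with no assigned role here, gave 1859.9, 1579.5 and 1973 on phenylalanine, against 1017, 966 and 1120.2 on asparagine (0.80 ± 0.13 SE, adjusted p = 0.000578).

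Among genes below all other sources, 2 encode small nucleolar RNAs. SNR55 gave 18.6, 17.5 and 17.7 on phenylalanine, against 88.2, 97.6 and 92.9 on asparagine (-2.37 ± 0.18 SE, adjusted p = 1.41e-07), and SNR41 gave 24.8, 25.4 and 20.7 on phenylalanine, against 50.6, 62.0 and 53.5 on asparagine (-1.23 ± 0.16 SE, adjusted p = 5.61e-05). One probe set of the ribosomal RNA precursor RDN37-1 averaged 358 ± 27.0 on phenylalanine and 1031 ± 24.1 on asparagine (-1.53 ± 0.11 SE, adjusted p = 9.26e-08), while 6 dimmer probe sets of the same locus did not pass, with differences of both signs. The labels give polyA RNA as the molecule, and geometric mean signals of the ribosomal RNA control probe sets were 25.2, 6.32 and 47.5 on phenylalanine and 9.97, 19.4 and 17.4 on asparagine. With this control signal as a covariate, the differences from asparagine were -2.41 for SNR55, -1.21 for SNR41 and -1.52 for RDN37-1 (adjusted p = 5.52e-08, 9.95e-05 and 2.65e-07). Carry-over of RNA without a polyA tail was not tested. GLY1, threonine aldolase, gave 146, 138 and 92.0 on phenylalanine, against 309, 425 and 298 on asparagine (-1.47 ± 0.20 SE, adjusted p = 9.30e-05). OAZ1, the antizyme that restrains ornithine decarboxylase, gave 65.6, 75.4 and 58.3 on phenylalanine, against 149, 204 and 169.8 on asparagine (-1.39 ± 0.16 SE, adjusted p = 2.04e-05). AHP1, a thiol peroxidase, averaged 448 ± 190.3 on phenylalanine and 1008 ± 98.3 on asparagine (-1.25 ± 0.20 SE, adjusted p = 0.000364), and GRX4, a glutaredoxin of iron regulation, 208 ± 66.3 on phenylalanine and 393 ± 77.7 on asparagine (-0.94 ± 0.20 SE, adjusted p = 0.00321). The arrays of the 2 groups did not overlap for any of these, and the difference of OAZ1 from the nearest source, methionine, was -0.88 ± 0.16 (SE, adjusted p = 0.00168).

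**Figure D5:**
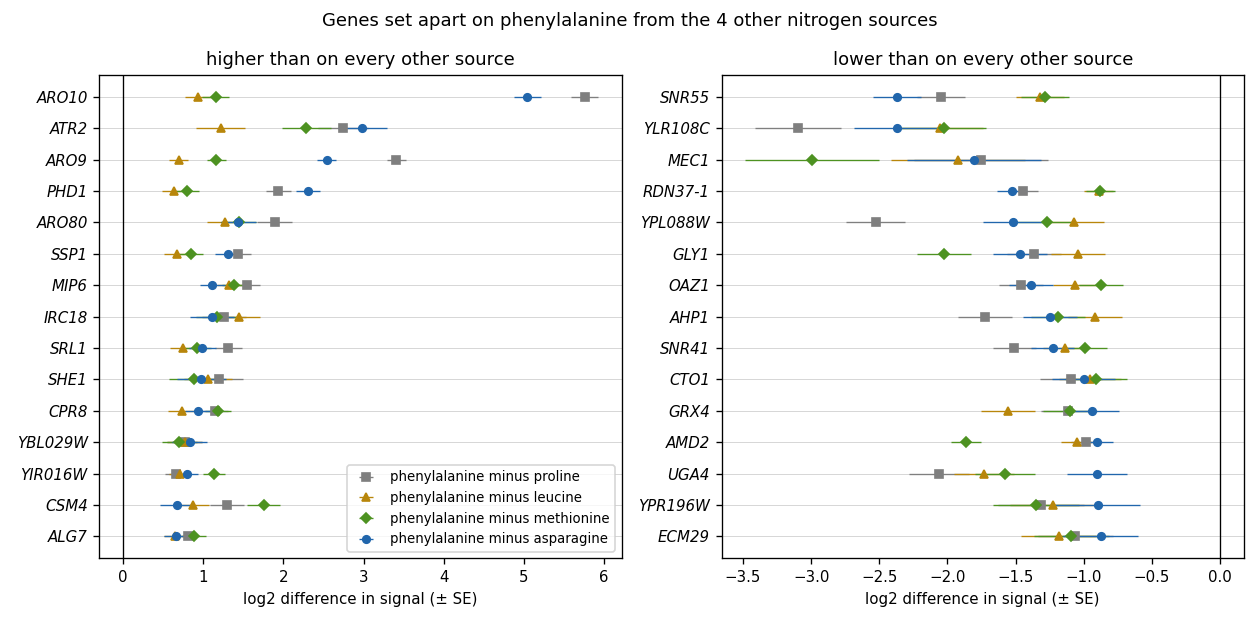
Log2 difference in signal (points, ± SE) of phenylalanine minus proline, leucine, methionine and asparagine for the 15 genes highest and the 15 lowest on phenylalanine relative to their nearest other source. ARO10 and ARO9 lie furthest from proline and asparagine and nearer to leucine and methionine, whereas ARO80, MIP6 and SRL1 differ by like amounts from all 4 sources.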

How the data were processed

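RNA from chemostats was measured on 15 Affymetrix YG_S98 arrays, 3 for each of 5 nitrogen sources. The deposited values are linear signal intensities that the authors made with MAS5, per the submitters' processing notes. The sources used here do not name its version or a genome build, and the equal trimmed means show that arrays were scaled to 1 level. The number of arrays limits the precision. The table held 9335 probe sets, of which 60 controls were left out, and 310 values of 0. Probe sets were named from the platform annotation and RefSeq: 6504 had 1 gene, 328 several and 2443 none, and no gene was named from a probe set with several.

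Signals were raised to a floor of 2.1, the 10th percentile, and taken as log2. To be tested, a probe set had to exceed its array's 25th percentile on 3 or more of the 15 arrays, which 7445 did (80.3%). limma 3.58.1 in R 4.3.3 fitted 1 mean for each source over all 15 arrays, with moderated variances that follow a trend in the mean and Benjamini-Hochberg adjustment over all tested probe sets. All p-values are 2-sided. Groups with a mean below a signal of 10, the 25th percentile, get a fold only as a bound. The fit was tested on simulated data in which all sources shared the same spread. That test cannot show the effect of the wider spread among the phenylalanine arrays.

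In the counts of genes, a gene stands for its brightest tested probe set. A gene named for a large change or for being set apart stands for the probe set that differed most. Genes named are the 15 largest changes each way without overlap, members of the lists on nitrogen, Ehrlich, export and aromatic synthesis genes, up to 6 others from each remaining list by adjusted p, and the 15 genes each way most set apart from all sources. Of 5384 genes, 347 were named, 12 of them through probe sets that can bind related transcripts. The comparison and the 48 gene lists were chosen with earlier results of these data known. Whether the 3 arrays of a source came from separate cultures is not said in the labels, and p-values therefore reflect only how these arrays vary, which may be technical. Same-numbered arrays of both groups deviated from their group means with correlations of -0.248, -0.149 and -0.078, so the numbers were not taken as pairs. Alternatives in scaling, floor, filter, variance model, arrays fitted and control signals as covariates were tried.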

Additional observations from a re-analysis of the deposited data

How the results depend on the processing

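The count of probe sets that differed on phenylalanine from asparagine was 1912 (563 higher and 1349 lower). It was 848 higher and 813 lower after quantile normalization, 1104 higher and 607 lower after centring each array on its median, and 130 higher and 457 lower (587 in all) with a minimum of 2-fold. With only the 6 arrays of the comparison, 841 passed, 248 higher and 593 lower. Leaving out 1 array gave 1175 to 2397 in all, 395 to 672 higher and 780 to 1725 lower. The causes of these shifts were not tested, apart from the smaller fit and the stricter rule. At an unadjusted p under 0.05, 2773 passed.

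The 131 probe sets set apart from all other sources (44 higher, 87 lower) numbered 79 with 41 lower after quantile normalization, and 90 higher and 32 lower after centring. With the actin ratio as a covariate there were 58 (23 higher, 35 lower), and with the hybridisation control signal 44 (17 higher, 27 lower). Without a variance trend 29 were higher, and with at least 2-fold 14 passed (4 higher, 10 lower). Leaving out 1 array gave 73 to 292 in all, 24 to 90 higher and 49 to 202 lower. The fit of only 6 arrays was not run for these, since it holds no other source.

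With the array number as a replicate block 1863 probe sets passed against asparagine and 116 were set apart. Of 347 named genes 237 were called against asparagine, and 160 of them kept that call under each alternative run for them. These were all 19 alternatives for 311 named genes and 18 for the other 36, which the filter at the 50th percentile left out; 155 of the 160 were tested under all 19. None changed sign while called. With only the 6 arrays of the comparison, 72 named genes lost their call. Whether a named gene stayed apart from every other source was not followed under the alternatives. The promoter motif description was not run, for want of a promoter table. Few arrays a group, and signals near background, limit what could pass.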
